A study of Mus musculus with 108 samples.

Results

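Ubb, Uba1, Uba6, Uba2 and Uba3 supply and activate ubiquitin and its relatives SUMO and NEDD8, and their RNA was measured in single mouse oocytes. The 5 genes were taken by symbol from the 55573 gene IDs of the count tables. They were selected on their counts in these same libraries, and which comparison chose them is not recorded, so their fitted differences and adjusted p-values are given as descriptions. Control oocytes were compared with oocytes in which Exosc10, a nuclear 3′ to 5′ exonuclease of the RNA exosome, was deleted by an oocyte-specific knockout (cKO). The labels do not name the promoter that drives the deletion, the strain or the age of the females.

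The polyA libraries were made from RNA captured on oligo-dT beads. They covered germinal vesicle (GV) oocytes from 7 control and 15 cKO oocytes, oocytes after 3 hours of culture (GV3h) from 8 control and 11 cKO oocytes, and metaphase II (MII) eggs from 8 control and 15 cKO eggs. The RiboMinus libraries were primed with random hexamers and do not depend on a poly(A) tail. They covered 8 control and 7 cKO GV oocytes, and 3 control and 4 cKO MII eggs. GV and GV3h oocytes were held in M2 medium outside the animal, whereas MII eggs came from oviducts, so stage and origin cannot be told apart. Each female gave oocytes of 1 stage and 1 genotype. The polyA oocytes came from 16 females and the RiboMinus oocytes from 7, with 1 to 3 females in a group, so p-values over oocytes measure in part the spread within a female.

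Ubiquitin is made as a fusion and is cut to single units: Ubb encodes a chain of ubiquitin repeats, and Rps27a encodes ubiquitin fused to a ribosomal protein. An E1 enzyme activates the modifier with ATP and passes it to an E2 enzyme, from which an E3 ligase directs it to a substrate. Uba1 is the main ubiquitin E1, Uba6 activates ubiquitin and the modifier FAT10 and serves the E2 Ube2z, Uba2 forms the SUMO E1 with Sae1, and Uba3 forms the NEDD8 E1 with Nae1. In oocytes, ubiquitin-dependent proteolysis of cyclin B and securin drives the passage through the meiotic divisions, and stored mRNAs are translated or cleared in step with changes of their poly(A) tails.

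The coding sequence of Ubb shows how repeats that encode 1 protein differ in their bases. Ubb (ENSMUSG00000019505, chr11:62551171-62553213, + strand, GRCm38) holds 4 ubiquitin repeats of 228 bases in GENCODE M21. The first repeat is printed 5′ to 3′, and capitals mark the positions that vary among the 4 repeats.
Ubb coding repeat 1: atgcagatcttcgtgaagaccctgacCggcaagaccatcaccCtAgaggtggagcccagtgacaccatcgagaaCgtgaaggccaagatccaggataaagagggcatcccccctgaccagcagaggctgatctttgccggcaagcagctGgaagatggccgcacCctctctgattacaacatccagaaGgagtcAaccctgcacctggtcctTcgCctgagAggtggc
Of the 11 variable positions of Ubb, 10 lie at codon position 3, and the 4 repeats encode ubiquitin with 0 residue differences. However, 61.0% of the 50-base stretches of Ubb occur in another gene, mostly the near-identical copy Gm1821 with 884 of 1450 stretches and Gm8797 with 494. Their counts in the polyA libraries were low, at 0 to 29 for Gm1821 and 1 to 72 for Gm8797, against at least 220 counts of Ubb. In RiboMinus control MII eggs Gm8797 had 42 to 63 counts against 4986 to 6616 of Ubb. The files' line for alignments that are not unique is 0 in every library. Reads that fit both Ubb and a copy may thus be missing from the counts of either. The level of Ubb is uncertain to that extent, and the low counts of the copies cannot show how strongly they are expressed.

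The other 4 genes have little or no shared sequence and overlap no other annotated gene. Uba1 lies at chrX:20658326-20683179 (+ strand), Uba6 at chr5:86109287-86172803 (− strand), Uba2 at chr7:34140688-34169599 (− strand) and Uba3 at chr6:97183670-97205647 (− strand), all GRCm38. No 50-base stretch of Uba6 or Uba2 occurs in another gene, and the shares for Uba1 and Uba3 are 0.77% and 1.63%. Because the polyA libraries capture RNA by its tail, the 30 bases that end with the last poly(A) signal AATAAA are shown for each transcript, with the signal in capitals, as searched on the transcript strand of GENCODE M21.
Ubb 3′ end: gctgaacctctgttaaaaaatgttAATAAA
Uba1 3′ end: acacatacaatcagtcaatcaatcAATAAA
Uba6 3′ end: agtttcagataattacagttctatAATAAA
Uba2 3′ end: caaatatactgtacttatggaccaAATAAA
Uba3 3′ end: attgatgcttttgcactatttattAATAAA
All 5 transcripts hold AATAAA within their last 100 bases, as do 64.8% of 19348 transcripts, 1 for each protein-coding gene with a window of that length. The letters TTTTAT, a form of the cytoplasmic polyadenylation element, occur in the last 100 bases of Uba6 and Uba3, after the printed signal and without overlap with it, and in 13.9% of all the transcripts. They are not in that window of Ubb, Uba1 or Uba2.

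The polyA libraries held 4638718 to 8735914 counts on genes and the RiboMinus libraries 12319658 to 62675760. Exosc10 was 43.0 to 166 CPM (counts scaled to the library's total) in control polyA libraries against 0 to 4.44 in cKO ones, and 84.9 to 162 against 0.446 to 8.29 in RiboMinus libraries, so every library matched its genotype label. The summed level of 10 oocyte markers was 7329 CPM or more in every oocyte, and that of 12 granulosa and cumulus markers was 68.0 to 200. That sum was 152 to 169 CPM in the 3 RiboMinus control MII eggs, with 5 of the 12 at 0 counts (Amh, Amhr2, Foxl2, Hsd17b1, Ptx3). Without overlap, it was 68.2 to 107 in RiboMinus cKO MII eggs and 104 to 150 in RiboMinus control GV oocytes. RiboMinus cKO GV oocytes held 97.1 to 200 CPM, a range that includes the control MII eggs. The share of reads in no feature also moved with the groups, at 11.2 to 12.0% in RiboMinus control MII eggs against 8.43 to 9.56% in cKO ones, and 5.86 to 6.77% in polyA MII eggs against 9.88 to 14.2% in polyA GV and GV3h oocytes. The part of either in the results at MII was not tested. Of 4 blood and immune markers, the erythroid gene Hba-a1 was at 0 in all oocytes. The summed level of these 4 reached 13.1 CPM in polyA cKO oocytes against 3.55 in polyA controls, and 26.0 against 4.25 in RiboMinus libraries, and its part in the results was not tested. CPM here were scaled with TMM factors, which adjust each library to the bulk of its genes within the polyA or the RiboMinus set. The added ERCC spike-ins are not in the gene counts used, so every change is relative to the other RNAs of the oocyte and not an amount per oocyte.

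**Figure D1:**
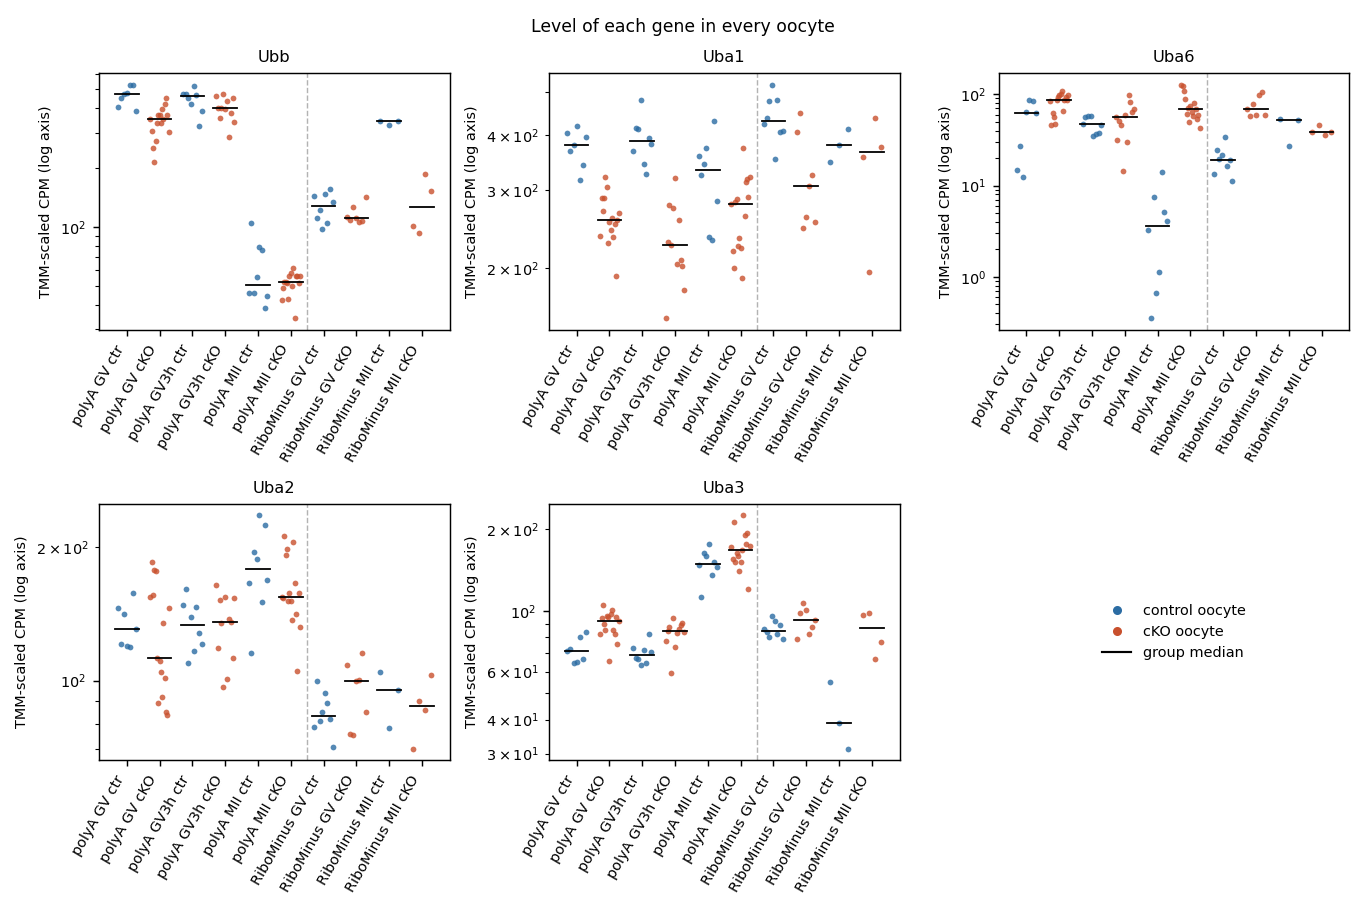
Each panel plots 1 gene, with its TMM-scaled CPM on a log axis whose range differs between panels, for every oocyte of the 10 groups. Blue points are control oocytes, red points cKO oocytes, bars group medians, and the dashed line separates polyA from RiboMinus libraries. Ubb in polyA libraries drops from medians of 352 to 475 before maturation to 50.8 and 52.1 in MII eggs, and Uba6 of polyA MII control eggs is at most 14.2.

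Per kilobase of annotated exon, Ubb was the most abundant of the 5 genes in GV oocytes of the polyA libraries. In control GV oocytes its level was 277 ± 31.7 CPM per kilobase (SD, n = 7), against 77.7 ± 7.55 for Uba1, 22.1 ± 2.46 for Uba2, 11.3 ± 1.202 for Uba3 and 6.15 ± 3.89 for Uba6. In control MII eggs the order was Uba1 at 66.9 ± 14.4, Ubb at 36.5 ± 13.7, Uba2 at 29.9 ± 6.48, Uba3 at 23.3 ± 3.02 and Uba6 at 0.556 ± 0.565 (SD, n = 8). In these polyA libraries Ubb had moved below Uba1, and on this scale its gap to Uba2 was within 1 SD. The lengths cover all annotated exons, at 6033 bases for Uba2, 6368 for Uba3 and 1675 for Ubb. The transcripts whose 3′ ends are shown have 2579, 2257 and 1499 bases. The order of Ubb, Uba2 and Uba3 at MII depends on that choice of length. RiboMinus controls had the reverse order, with Uba1 at 90.9 ± 10.9 and Ubb at 75.7 ± 12.7 at GV (n = 8), and Ubb at 203 ± 4.37 and Uba1 at 78.7 ± 6.85 at MII (n = 3, 1 female).

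A gene is termed called where its Benjamini-Hochberg adjusted p was under 0.05 in edgeR's quasi-likelihood test over all tested genes. Between genotypes, 3 of the 5 genes were called in polyA GV oocytes, where 40.4% of all tested genes were, with 1 higher in the cKO (22.0% of all genes) and 2 lower (18.5%). In polyA GV3h oocytes 2 were called against 55.5% of all genes, 1 higher (29.4%) and 1 lower (26.1%). In polyA MII eggs 2 were called against 37.6%, 1 higher (19.0%) and 1 lower (18.6%). In RiboMinus GV oocytes 2 were called against 37.6%, 1 higher (21.2%) and 1 lower (16.5%). In RiboMinus MII eggs 2 were called against 23.7%, 1 higher (13.9%) and 1 lower (9.78%). Uba1 was lower in every comparison but RiboMinus MII, and Ubb was lower in polyA GV and RiboMinus MII. Uba6 was higher in polyA MII and RiboMinus GV, and Uba3 was higher in the other 3. Uba2 was called in none of the 5. From GV to MII, 4 of the 5 genes were called in polyA controls, where 63.4% of all tested genes were, with 2 higher at MII (30.1% of all genes) and 2 lower (33.3%). In the polyA cKO 3 were called against 74.8%, 2 higher (33.1%) and 1 lower (41.7%). In RiboMinus controls 3 were called against 30.9%, 2 higher (15.0%) and 1 lower (15.8%). In the RiboMinus cKO 1 was called against 16.1%, 0 higher (7.40%) and 1 lower (8.67%). After 3 hours of culture none was called by edgeR in controls or cKO, where 0.519% and 0.602% of all genes were called, and 0 and 2 of the 5 had an unadjusted p under 0.05. DESeq2's Wald test called none there either. Single females decided this for Uba6 and Ubb. Without control female V856 or V889 the control change of Uba6 was −0.67 or 1.37, both called (edgeR adjusted p = 0.0224 and 0.00369). Without cKO female V857 the cKO change of Uba6 was −0.77, and without V888 that of Ubb was 0.53, both called (edgeR adjusted p = 0.0253 and 0.0311). In the same runs the calls over all tested genes rose as well, from 66 to 376 and 207 in controls. In the cKO they rose from 86 to 1548 and 934.

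**Figure D2:**
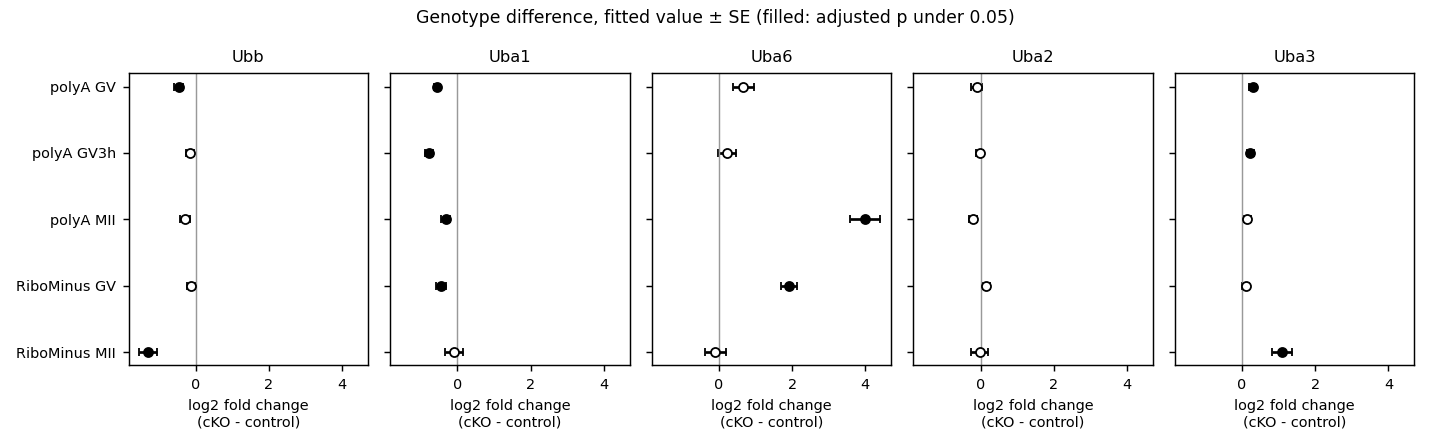
The panels plot, for each gene, the fitted log2 fold change of cKO over control oocytes (x axis, the same range in all panels) in the 5 comparisons of stage and library (y axis). Points are edgeR estimates, bars are ± 1 SE, and filled points have an adjusted p under 0.05. Uba6 ranges from −0.10 to 4.0, while Uba2 stays between −0.21 and 0.14.

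Ubb, which is induced by proteotoxic stress in many cells, lost most of its polyA signal between GV and MII in both genotypes. In control GV oocytes the polyA level of Ubb had a lowest value of 390 CPM, a median of 475 and a highest of 527, and in control MII eggs 38.5, 50.8 and 104. The oocytes of both stages did not overlap, and Ubb fell by 2.94 on the log2 scale (SE 0.19, edgeR adjusted p = 1.52e-10). In cKO oocytes the values were 214, 352 and 450 CPM at GV and 34.2, 52.1 and 61.8 at MII, again without overlap, and Ubb fell by 2.75 (SE 0.10, edgeR adjusted p = 3.20e-22). The GV3h medians were 461 CPM in controls and 402 in the cKO.

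In RiboMinus libraries Ubb was not lower at MII. The 8 control GV oocytes held 97.6, 128 and 156 CPM (lowest, median, highest), and the 3 control MII eggs held 331, 343 and 344 CPM. Every MII value exceeded every GV value, and the rise of 1.42 on the log2 scale was called (SE 0.14, edgeR adjusted p = 2.35e-07). All 3 control MII eggs came from female V1145, so here and in every other RiboMinus result on control MII eggs, between stages or between genotypes, that 1 female and the group cannot be told apart. The 4 cKO MII eggs held 93.3 and 101 CPM in female V1166 and 152 and 186 in female V1167, against 105, 111 and 142 in cKO GV oocytes. That change was 0.20 (SE 0.19) and was not called (edgeR adjusted p = 0.510). PolyA and RiboMinus libraries were scaled apart, so their levels are not tested against each other.

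Between genotypes, Ubb was lower in cKO than in control MII eggs of the RiboMinus libraries, with a log2 difference of −1.30 (SE 0.25, edgeR adjusted p = 0.00296). Control and cKO eggs did not overlap, and the value was called in each alternative run, from −1.72 to −0.96. None of these could vary the control female, since all control eggs came from V1145, and the genotype cannot be told apart from that female. In polyA GV oocytes the fitted difference was −0.47 (SE 0.115, edgeR adjusted p = 0.00231), with overlapping oocytes. Summing the counts of each female took the call away (−0.585, edgeR adjusted p = 0.236), as did leaving out control female V889 (−0.43, adjusted p = 0.0823), and it was −0.76 without cKO female V888. The cKO females differed, with means of 280 CPM in V857 and 371 in V888. In polyA GV3h, polyA MII and RiboMinus GV oocytes the values were −0.16, −0.295 and −0.14, none called, and the first changed sign under scaling by library totals. Without control female V896 the polyA MII value was −0.435 and was called (edgeR adjusted p = 0.0260).

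Rps27a, another ubiquitin precursor, lost polyA signal from GV to MII as well, with log2 changes of −4.86 in controls (SE 0.555, edgeR adjusted p = 2.93e-07) and −3.88 in the cKO (SE 0.23, edgeR adjusted p = 1.18e-16), without overlap of the stages. In RiboMinus libraries it also fell by 2.19 in the cKO (SE 0.70, edgeR adjusted p = 0.0466), and was at −0.945 and not called in controls. Sums per female called 0 genes in that cKO comparison, so the call of Rps27a was lost there. Between genotypes Rps27a was called in polyA GV3h oocytes alone of the 5 comparisons, at 0.47 (SE 0.14, edgeR adjusted p = 0.00718). Of its 50-base stretches 72.0% occur in another gene, and 160 of its exon bases lie within Clhc1 on the opposite strand. The strand setting of the counting is not given, so its values are uncertain.

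Uba1, the E1 through which most ubiquitin enters conjugates, was lower in cKO oocytes in 4 of the 5 comparisons. In polyA GV3h oocytes the controls held 327, 387 and 479 CPM (lowest, median, highest) and the cKO 154, 225 and 319. These oocytes did not overlap, and the fitted log2 difference was −0.78 (SE 0.11, edgeR adjusted p = 6.11e-06). It remained called on sums per female, at −0.84 (edgeR adjusted p = 0.00105), and ranged from −0.89 to −0.605 over the alternatives. At polyA GV the controls held 315, 379 and 420 CPM and the cKO 192, 257 and 322, overlapping at the edge, with a difference of −0.56 (SE 0.08, edgeR adjusted p = 1.19e-05). Both cKO females had lower means than both control females there, but the female sums gave −0.58 with an adjusted p of 0.190.

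The smaller differences of Uba1 lay near the threshold. In RiboMinus GV oocytes the controls held 353, 430 and 519 CPM and the cKO 247, 307 and 449. The difference was −0.45 (SE 0.135, edgeR adjusted p = 0.0155), and it was −0.25 without cKO female V1131, −0.37 without control female V1132 and −0.545 without control female V1133, called in none of these (edgeR adjusted p = 0.494, 0.152 and 0.0642). Nor was it called on sums per female (−0.50, edgeR adjusted p = 0.172) or with the female as a random effect in limma's voom (−0.48, adjusted p = 0.0543). In polyA MII eggs the difference was −0.32 (SE 0.12, edgeR adjusted p = 0.0400), with controls at 231, 334 and 431 CPM and the cKO at 190, 278 and 374. Leaving out any of females V841, V842, V897, V836 or V896, scaling by library totals, dropping the filter, or voom took that call away, with values from −0.42 to −0.22 and adjusted p of 0.0559 to 0.161. On sums per female it was −0.43 and called (edgeR adjusted p = 0.0366). In RiboMinus MII eggs Uba1 was 346, 379 and 412 CPM in controls and 195, 356, 376 and 438 in the cKO, a fitted −0.10 (SE 0.25) that was not called and changed sign under library totals. From GV to MII Uba1 was not called in either genotype or library, with values of −0.22 and 0.025 in polyA control and cKO and −0.20 and 0.09 in RiboMinus. Under library totals the polyA values were −0.60 and −0.425, both called, and with a mean of at least 50 counts the polyA control value was −0.33 and called (edgeR adjusted p = 0.0245).

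Uba6, the alternative ubiquitin E1, showed the widest range of the 5 genes. In polyA MII eggs the controls held 0.350, 3.63 and 14.2 CPM (lowest, median, highest; 2 to 82 counts) and the cKO 42.5, 68.6 and 127 CPM (258 to 885 counts). No control egg reached the lowest cKO egg, and the fitted log2 difference was 4.0 (SE 0.41, edgeR adjusted p = 2.46e-08). On sums per female it remained called, at 4.46 (edgeR adjusted p = 0.000551), and lay between 3.75 and 4.72 over all alternatives. The 3 control females had means of 1.79, 5.90 and 4.55 CPM, and the 3 cKO females 125, 98.6 and 62.0.

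The same RNA was not low in control MII eggs of the RiboMinus libraries, which held 27.3, 52.9 and 53.3 CPM against 35.9 to 46.6 in the cKO eggs. That difference of −0.10 (SE 0.29) was not called (edgeR adjusted p = 0.851). In RiboMinus GV oocytes, by contrast, Uba6 was 11.1, 19.3 and 33.9 CPM in controls and 57.3, 69.2 and 106 in the cKO. The groups did not overlap, and the difference of 1.91 was called (SE 0.22, edgeR adjusted p = 0.000105). Sums per female gave 1.86 with an adjusted p of 0.124, while the control females had means of 19.7 and 20.2 CPM and the cKO females 68.0 and 81.1.

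In polyA GV oocytes Uba6 differed between the control females by more than between the genotypes. Control female V856 had a mean of 18.1 CPM over 3 oocytes (12.4 to 27.0) and control female V889 had 74.2 over 4 (61.8 to 87.4), while cKO females V857 and V888 had means of 59.0 and 92.1. The fitted difference of 0.67 (SE 0.295) was not called (edgeR adjusted p = 0.0720), but it was 2.12 and called without V889 (edgeR adjusted p = 0.000191), and 0.865 and called without V857 (edgeR adjusted p = 0.0224). It was also called by DESeq2's Wald test (0.685, adjusted p = 0.0388) and under library totals (0.825, edgeR adjusted p = 0.0249). In GV3h oocytes the controls held 34.9 to 57.6 CPM and the cKO 14.5 to 97.4, and the difference of 0.21 was not called.

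**Figure D3:**
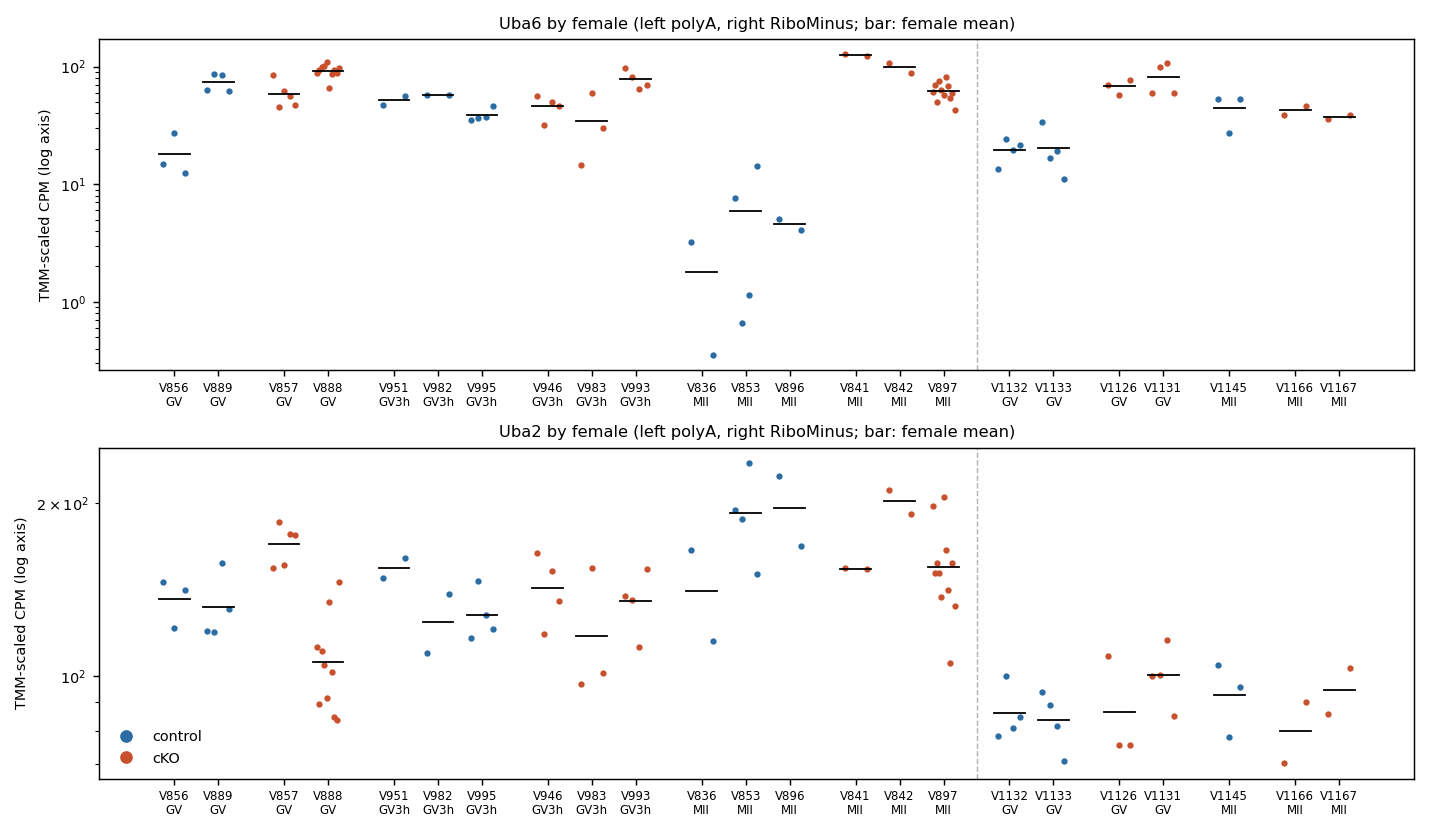
The plots give TMM-scaled CPM on a log axis for Uba6 (upper) and Uba2 (lower), with every oocyte placed at its female; polyA females are left of the dashed line and RiboMinus females right. Blue is control, red is cKO and bars are female means. Control females V856 and V889 differ in Uba6 at GV (18.1 and 74.2), and the 3 control MII females of the polyA set have means of 5.90 or less. In the lower plot, cKO GV females V857 and V888 differ in Uba2 (170 and 106).

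From GV to MII the polyA signal of Uba6 fell in controls by 3.48 on the log2 scale (SE 0.60, edgeR adjusted p = 5.08e-05), and by 1.98 without female V889, still called. In cKO oocytes, with 45.7, 87.6 and 108 CPM at GV and the MII values above, the change was −0.125 (SE 0.15) and not called (edgeR adjusted p = 0.465). That value was 0.49 without female V897 (edgeR adjusted p = 0.0372), which gave 11 of the 15 cKO eggs, and −0.56 under library totals, both called. In RiboMinus libraries Uba6 rose in controls by 1.16 (SE 0.26, edgeR adjusted p = 0.00214), with 1 of 3 eggs inside the GV range, and the fitted cKO value was −0.91 (SE 0.22, edgeR adjusted p = 0.0137), with no overlap of oocytes. The cKO value lost its call without V1131, V1166 or V1167, at −0.77, −1.025 and −0.81. Nor was it called on sums per female (−0.967, edgeR adjusted p = 0.172) or with the female as a random effect in limma's voom (−0.898, adjusted p = 0.0725).

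Because Uba1 and Uba6 activate the same modifier, their counts were compared within each oocyte, which needs no scaling between libraries. In polyA MII eggs the log2 ratio of Uba1 to Uba6 counts was 6.86 ± 1.81 (SD, n = 8) in controls and 1.88 ± 0.64 (n = 15) in the cKO. The lowest control egg stood at 4.02 and the highest cKO egg at 2.92, so the groups did not overlap. In RiboMinus GV oocytes the ratio was 4.52 ± 0.56 (n = 8) in controls and 2.09 ± 0.515 (n = 7) in the cKO, again without overlap, at a lowest control of 3.38 and a highest cKO of 2.97. In RiboMinus MII eggs it was 3.15 ± 0.57 (n = 3) and 3.04 ± 0.67 (n = 4), a gap below 1 SD. At polyA GV the groups overlapped, at 1.85 to 4.92 in controls and 1.04 to 2.78 in the cKO, and at polyA GV3h the control range of 2.85 to 3.39 lay within the cKO range of 1.34 to 4.24.

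**Figure D4:**
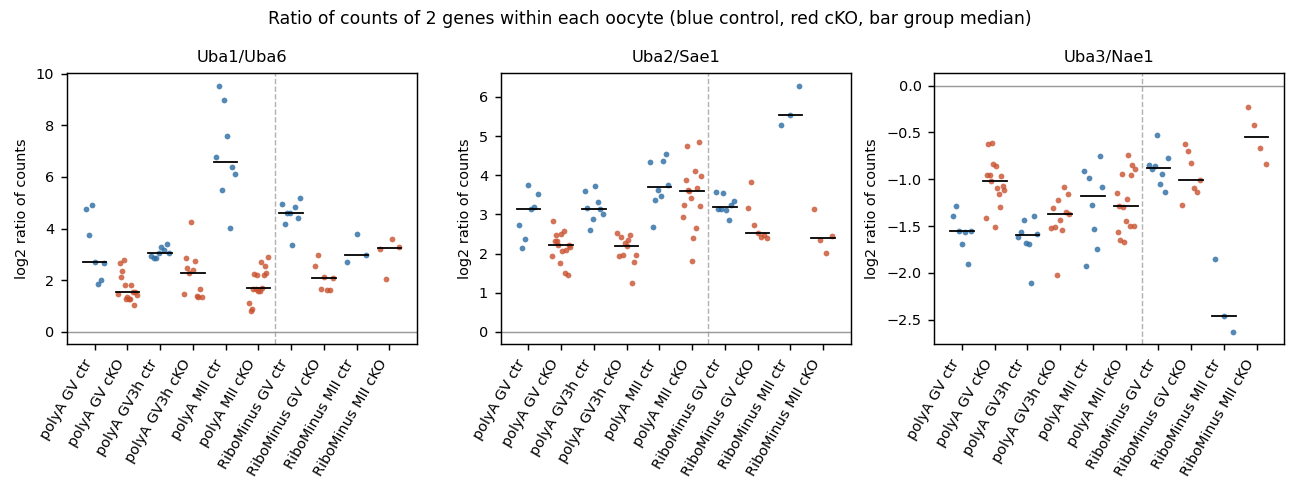
Each panel plots the log2 ratio of the counts (0.5 added to each) of the named pair within every oocyte, by group, with an axis range of its own; blue points are controls, red points cKO, and bars group medians. The Uba1 to Uba6 ratio of polyA MII eggs is 4.02 or more in every control and 2.92 or less in every cKO egg. The counts are not divided by gene length, so only shifts between groups can be read, not the balance of the pair.

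Uba6 and its partners were followed further along the pathway. Ube2z, the E2 that accepts ubiquitin from Uba6, was higher in the cKO at polyA GV (1.243), GV3h (1.04), RiboMinus GV (1.25) and RiboMinus MII (1.82), and was 0.49 and not called in polyA MII eggs. In RiboMinus GV oocytes Ube2z was 19.8, 25.2 and 30.5 CPM in controls and 26.6, 69.2 and 82.7 in the cKO, overlapping in part. The cKO females had means of 74.0 CPM in V1131 and 41.2 in V1126, and without V1131 the difference was 0.72 and not called (edgeR adjusted p = 0.142). Neither GV value of Ube2z was called on sums per female. Uba7, the E1 of the interferon-induced modifier ISG15, passed the filter on low counts in no comparison, with a highest value of 3.79 CPM in any oocyte.

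Uba2, the catalytic subunit of the SUMO E1, was called between genotypes in none of the 5 comparisons. In polyA GV oocytes the controls held 119, 131 and 157 CPM (lowest, median, highest) and the cKO 83.7, 112 and 185, so the control range lay within the cKO range. The cKO females differed, with 154 to 185 CPM in V857 and 83.7 to 146 in V888. The fitted −0.10 (SE 0.15, edgeR adjusted p = 0.614) became −0.35 without V857 and 0.32 without V888, each called (edgeR adjusted p = 0.0150 and 0.0155). In the other comparisons the values were −0.03, −0.21, 0.14 and −0.03 for polyA GV3h, polyA MII, RiboMinus GV and RiboMinus MII, none called, and those of polyA GV and GV3h and RiboMinus MII changed sign under library totals.

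Uba2 rose from GV to MII in polyA libraries, by 0.42 in controls (SE 0.13, edgeR adjusted p = 0.00831) and 0.32 in the cKO (SE 0.12, edgeR adjusted p = 0.0167), but both values depended on the scaling. Under library totals they were 0.04 and −0.13, neither called. On sums per female they were 0.45 and 0.39, neither called (edgeR adjusted p = 0.0708 and 0.238), and the cKO value was not called with the female as a random effect in limma's voom (0.33, adjusted p = 0.109). The control value was not called without female V889 or V853, and the cKO value was 0.02 without V888, 0.60 without V857 and 0.51 without V897. In RiboMinus libraries the values were 0.13 and −0.10, not called. The partner Sae1 was called higher in the cKO at polyA GV (0.62), GV3h (1.07), RiboMinus GV (0.66) and RiboMinus MII (3.21), and in RiboMinus control eggs it fell by 2.31 from GV to MII, to 1.19, 1.66 and 2.66 CPM. Single females moved the GV values of Sae1. At polyA GV it was 0.10 without control female V889, whose mean was 12.7 CPM against 25.4 in V856, and at RiboMinus GV it was 0.07 without cKO female V1131, with 18.2 CPM against 9.55 in V1126 and 8.55 and 9.70 in the control females; neither was called. On sums per female Sae1 was called at polyA GV3h alone of the 4 comparisons that could be fitted. The log2 count ratio of Uba2 to Sae1 was 5.70 ± 0.53 (n = 3) in those eggs and 2.49 ± 0.47 (n = 4) in cKO eggs, without overlap.

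Uba3, the catalytic subunit of the NEDD8 E1, gained polyA signal from GV to MII in both genotypes. Control oocytes held 64.3, 71.6 and 84.1 CPM at GV (lowest, median, highest) and 112, 149 and 176 at MII, and cKO oocytes 65.8, 92.2 and 105 at GV and 121, 167 and 225 at MII. In neither genotype did the stages overlap. Uba3 rose by 1.03 in controls (SE 0.11, edgeR adjusted p = 7.71e-08) and by 0.91 in the cKO (SE 0.08, edgeR adjusted p = 2.14e-12), and by 0.655 and 0.46 under library totals, all called. In RiboMinus controls it went the other way, from 78.8, 84.6 and 95.5 CPM at GV to 31.3, 39.0 and 54.9 at MII, without overlap, and fell by 1.04 (SE 0.16, edgeR adjusted p = 5.37e-05). RiboMinus cKO eggs held 66.6 and 77.2 CPM in V1167 and 96.7 and 98.1 in V1166, against 78.7 to 107 at GV, a change of −0.12 (SE 0.17) that was not called.

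Between genotypes, Uba3 was higher in RiboMinus cKO MII eggs by 1.08 (SE 0.27, edgeR adjusted p = 0.0135), with no overlap of eggs, where all control eggs came from female V1145. The value was 0.835 and not called without female V1166, and 1.04 and 0.91 and not called without control eggs V1145_3 or V1145_4. In polyA GV and GV3h oocytes the differences were 0.285 (SE 0.09, edgeR adjusted p = 0.0112) and 0.22 (SE 0.09, edgeR adjusted p = 0.0365), and 0.44 and 0.40 under library totals. The first was not called without control female V856 or V889, and the second without any of females V993, V951, V982 or V995. On sums per female they were 0.24 and 0.20, neither called. In polyA MII and RiboMinus GV oocytes the values were 0.15 and 0.10, not called.

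Nae1, the partner of Uba3, rose from GV to MII in polyA libraries as well, by 0.76 in controls and 1.12 in the cKO. In RiboMinus libraries it rose by 0.35 in controls (SE 0.13, edgeR adjusted p = 0.047), with overlapping oocytes. It fell by 0.535 in the cKO (SE 0.14, edgeR adjusted p = 0.0223), without overlap, and sums per female called 0 genes in that comparison. The log2 count ratio of Uba3 to Nae1 was −2.315 ± 0.41 (n = 3) in RiboMinus control MII eggs and −0.54 ± 0.27 (n = 4) in cKO eggs, without overlap, against −0.88 ± 0.18 (n = 8) and −0.95 ± 0.24 (n = 7) at GV. At polyA GV the ratio was −1.565 ± 0.20 (n = 7) in controls and −1.03 ± 0.25 (n = 15) in the cKO, with overlap. Nae1 itself was lower in the cKO at RiboMinus MII (−0.67, edgeR adjusted p = 0.0283) and at polyA GV (−0.25, edgeR adjusted p = 0.0262). The first was not called without V1167 (−0.64), and the second was −0.06 and not called without V889, and not called on sums per female. Ube2m and Ube2f are the NEDD8 E2 enzymes. Ube2m was higher in the cKO at polyA GV3h (0.57), polyA MII (1.098) and RiboMinus GV (1.08), and Ube2f at polyA GV (0.48) and GV3h (0.63). The RiboMinus GV value of Ube2m was 0.57 and not called without cKO female V1131, whose mean was 45.2 CPM against 25.6 in V1126. Of these 5 values only that of Ube2f at GV3h was called on sums per female. In polyA control libraries both fell from GV to MII, Ube2m by 2.52 and Ube2f by 2.38. The control MII eggs there held 1 to 12 counts of Ube2m and 3 to 31 of Ube2f. These falls and the polyA MII value of Ube2m thus rest on few counts. In RiboMinus controls Ube2m rose by 0.88 (edgeR adjusted p = 0.00463), and Ube2f was at −0.12 and not called.

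**Figure D5:**
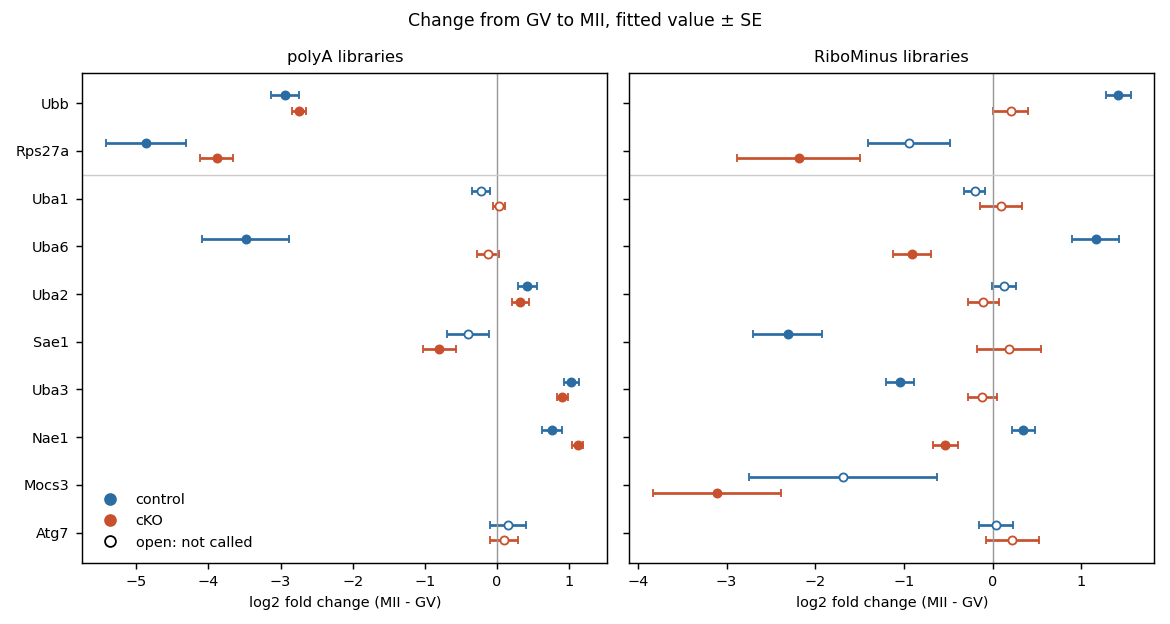
The panels plot the fitted log2 fold change from GV to MII (x axis, with a range of its own in each panel) for the ubiquitin precursors Ubb and Rps27a above the grey line and E1 enzymes and subunits below it, polyA left and RiboMinus right. Blue is control, red is cKO, bars are ± 1 SE, and open points were not called. Uba6 is at −3.48 in polyA controls and at −0.125 in the polyA cKO. Mocs3 had too few counts in polyA MII eggs to be fitted.

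Whether the change from GV to MII differed between genotypes was fitted directly with an interaction term. In polyA libraries 1 of the 5 genes was called, where 14.7% of all tested genes were, and it was Uba6 at 3.38 (SE 0.48, edgeR adjusted p = 1.47e-06). That value was 1.83 without control female V889 (edgeR adjusted p = 0.0287), and 3.82 with an adjusted p of 0.1001 when counts were summed per female. Ubb, Uba1, Uba2 and Uba3 were at 0.22, 0.28, −0.07 and −0.10, and without female V888 Uba2 was −0.46 and called (edgeR adjusted p = 0.0476). In RiboMinus libraries 3 of the 5 were called, where 14.8% of all tested genes were. These were Ubb at −1.22 (SE 0.25, edgeR adjusted p = 0.00206), Uba6 at −2.08 (SE 0.37, edgeR adjusted p = 0.000662) and Uba3 at 0.91 (SE 0.22, edgeR adjusted p = 0.00793). Ubb and Uba6 kept the call under every alternative run that was fitted. Sums per female were not among these runs, because the control MII eggs came from 1 female. Uba3 lost the call without female V1166 (0.69, edgeR adjusted p = 0.0582) and with the female as a random effect in limma's voom (0.96, adjusted p = 0.0568). Over the first 3 hours of culture no gene of the 5 was called by edgeR or DESeq2 for a difference between genotypes, where 0.0959% of all genes were, and 1 of the 5, Ubb, had an unadjusted p under 0.05. Without female V889 or V888 there were calls for Uba6 at −1.92 and for Ubb at 0.62. Over all tested genes the calls in those runs were 49 and 604, in place of 15. The interaction fits share their oocytes with the comparisons above.

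Among the other E1 enzymes, Mocs3, which activates URM1, was higher in RiboMinus GV (2.59), polyA GV3h (2.65) and polyA GV (3.315) oocytes, from control medians of 1.25, 0.478 and 0.171 CPM. The cKO females differed several-fold, with means of 13.6 CPM in V1131 and 2.95 in V1126 at RiboMinus GV, and 8.80 in V857 and 1.21 in V888 at polyA GV, where the control oocytes held 1 to 4 counts. Without V1131 the RiboMinus value was 1.00 and not called (edgeR adjusted p = 0.366), and on sums per female neither GV value was called. Atg7, the E1 of autophagy, was lower at polyA GV3h (−0.68) and called in no other genotype comparison.

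In the wider pathway, of 31 tested E2 enzymes, 7 were higher and 5 lower in polyA cKO GV oocytes, where 22.0 and 18.5% of all tested genes were, and Ube2q2 was at 1.31. In polyA MII eggs 9 were higher and 6 lower, where 19.0 and 18.6% of all tested genes were, with Ube2t at 1.499 and Ube2a, an E2 of histone H2B, at 1.43. At polyA GV3h 9 were higher and 5 lower, and at RiboMinus GV 10 of 32 were higher and 4 lower. In RiboMinus MII eggs 1 of 32 was higher and 4 were lower, where 13.9 and 9.78% of all tested genes were. Of 31 proteasome subunits, 2 were higher and 9 lower in polyA GV oocytes, 7 and 11 at polyA GV3h, 1 and 14 at RiboMinus GV, and 2 and 11 at RiboMinus MII. Over all tested genes, 29.4% were higher and 26.1% lower at polyA GV3h, and 21.2 and 16.5% at RiboMinus GV. On sums per female only 1 gene of all tested was called at polyA GV, a higher one, and 3 at RiboMinus GV, and without cKO female V1131 the calls over all genes at RiboMinus GV dropped to 103, so the GV counts of these lists do not hold under those alternatives. The proteasome medians were −0.12, −0.13, −0.33 and −0.58 against 0.06, 0.03, 0.001 and 0.13 over all tested genes. The ATPase subunit Psmc5 was at −0.62, −0.72, −0.94 and −2.71 in these comparisons. In polyA MII eggs 9 of 29 were higher and 4 lower, with Psma5 at 1.15 after −0.70 at GV. From GV to MII in controls, 22 of 31 proteasome genes fell and 6 rose in polyA libraries, while 6 fell and 14 rose in RiboMinus libraries. Of all tested genes 33.3% fell and 30.1% rose in the polyA controls, and 15.8% fell and 15.0% rose in the RiboMinus controls. Of 17 deconjugating enzymes, 5 were higher and 4 lower at polyA GV. The SUMO proteases Senp1 and Senp6 were lower, at −0.47 and −0.61, and Senp2 and Senp3 higher, at 0.78 and 0.75. Of 19 ligase genes, 6 were higher and 5 lower there. Rnf7, a RING subunit of cullin ligases, was at 0.79, and Dcun1d1 and Dcun1d3, which act in cullin neddylation, differed in opposite directions, at −0.86 and 0.845 in polyA GV oocytes. The SUMO E3 Pias1 was lower there, at −0.72, as it was at GV3h, at −0.86, and in RiboMinus GV oocytes, at −0.55. Of 7 tested modifiers, 1 was higher and 1 lower at polyA GV, and 6 were higher and 0 lower at polyA GV3h (edgeR). At polyA MII 3 of 6 were higher and 0 lower, at RiboMinus GV 3 of 8 and 0, and at RiboMinus MII 0 of 8 and 1. The modifier Nedd8 was higher in cKO polyA MII eggs and RiboMinus GV oocytes, at 1.102 and 0.66, and lower in RiboMinus MII eggs, at −0.79.

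Across the 64 polyA oocytes, the genes whose log2(CPM + 1) was most like those of Ubb, Uba1, Uba2 and Uba3 by Pearson's r, among 9087 genes with a mean of at least 3 on that scale, were listed as a description; the oocytes share stages and females. Ubb was closest to Setd4 (0.983) and U2af1l4 (0.979), Uba1 to Nfyc (0.821) and Ttk (0.788), Uba2 to Synj1 (0.776) and Rpusd4 (0.755), and Uba3 to Nus1 (0.925) and Ccnyl1 (0.923). On deviations from the group mean the same pairs had lower r. In that order these were 0.541 and 0.526, 0.576 and 0.503, 0.688 and 0.704, and 0.431 and 0.289. Among the 5 genes themselves, Ubb and Uba3 ran opposite to each other in both library types, with r = −0.928 over 64 polyA and −0.875 over 22 RiboMinus oocytes, and −0.212 and −0.332 within groups.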

How the data were processed

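Gene counts of 64 polyA and 22 RiboMinus libraries, each 1 oocyte or egg, were used as deposited. Per the submitters' processing notes the authors used cutadapt 2.5, FastQC 0.11.8, STAR 2.7.2a, SAMtools 1.9, HTSeq 0.9.1, R 3.5.1 and DESeq2 1.24.0 with mm10. The annotation release, strand setting and any removal of duplicates are not given in the sources used here. Lines that name no gene stayed out of library sizes: reads in no feature were 5.86 to 14.2% of polyA and 8.34 to 12.4% of RiboMinus counts. Of 55573 gene IDs, 55480 were matched to GENCODE M21 (GRCm38) for names, coordinates and sequences.

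The 5 genes, the lists and the tests were chosen with earlier results of these data known. edgeR 4.0.16 (filterByExpr, TMM factors, quasi-likelihood test, R 4.3.3) was fitted to the groups compared in each of 14 comparisons, with p-values adjusted by Benjamini-Hochberg over all tested genes, and all 5 genes passed the filter in each. The code was tested on simulated data. Genes of other lists were named as the 2 called genes with the largest log2 difference in each direction per list and comparison, among those whose log2 CPM averaged 3 or more, and the values of other precursors, E1 enzymes and their E2 partners were given for those reported. Some genes are not reported here. Alternatives were DESeq2 1.42.0 (size factors, Wald test), library totals, no filter, a mean of at least 50 counts, all groups in one fit, sums per female, voom in limma 3.58.1 with the female as random effect, and leaving out each female, or each oocyte in small groups. Figures were drawn with matplotlib 3.10.9 in Python 3.11.15.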

Additional observations from a re-analysis of the deposited data

Results flagged for a closer look

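The change from GV to MII differed between genotypes for 4 combinations of gene and library, by edgeR's interaction term with the adjusted p-values given in the report. Uba6 in polyA libraries had a difference of 3.38 on the log2 scale. In RiboMinus libraries Ubb had −1.22, Uba6 −2.08 and Uba3 0.91. The Ubb and RiboMinus Uba6 values were called in every alternative run that was fitted. Sums per female could not be fitted there, and no run could vary the 1 control MII female. PolyA Uba6 was not called on sums per female (3.82, edgeR adjusted p = 0.1001). RiboMinus Uba3 was called neither with voom nor without V1166. Uba6 thus has opposite signs in the library types. All RiboMinus control MII eggs came from 1 female, so stage or genotype and that female cannot be told apart there. Of 30 groups tested for a single oocyte far from the others, 0 met the limit, where chance gives about 1 in 20.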

How the results depend on the processing

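No paired analysis was possible because each female gave oocytes of 1 stage and 1 genotype and the groups share no replicate numbers. Of 2669 recomputed differences of the 5 genes and their pathway, 2458 kept their side of the threshold with no called value reversed, of which 140 were values not called that changed sign, 167 lost a call, 39 gained one and 5 reversed. The reversals were Uba2 (0.32) between genotypes at polyA GV without V888, Uba6 in control GV3h against GV without V889 (1.37), Uba1 (−0.425) and Uba2 (−0.13) in polyA cKO MII against GV under library totals, and Uba6 there without V897 (0.49). With single females left out, the ranges of these were −0.35 to 0.32, −0.67 to 1.37, −0.06 to 0.09, 0.02 to 0.60 and −0.30 to 0.49, in that order. The cause was not tested.

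The number of the 5 genes called between genotypes, with its range when single females or oocytes were left out, was 3 (2 to 5) at polyA GV, 2 (1 to 2) at polyA GV3h, 2 (1 to 2) at polyA MII, 2 (1 to 2) at RiboMinus GV and 2 (1 to 2) at RiboMinus MII. From GV to MII it was 4 (3 to 4) in polyA controls, 3 (2 to 4) in polyA cKO, 3 (3 to 3) in RiboMinus controls and 1 (0 to 1) in RiboMinus cKO. From GV to GV3h it was 0 (0 to 1) in each genotype, and for the interactions 0 (0 to 1), 1 (1 to 2) and 3 (2 to 3). With counts summed per female it was 0 at polyA GV, RiboMinus GV, RiboMinus cKO MII against GV and the polyA MII interaction, and 1 at polyA GV3h. With voom it was 1 at polyA GV3h, polyA MII and RiboMinus GV and 0 at RiboMinus cKO. Without the filter it was 1 at polyA GV3h and MII, and under library totals 1 at polyA MII. Female sums could not be fitted with the single RiboMinus control MII female.

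Over all genes, female sums called 1 in place of 5908 at polyA GV, 3 in place of 5774 at RiboMinus GV and 2522 in place of 4727 at polyA MII, and voom 1379 and 2725 at the first and second. Single females moved these counts to 2835 at polyA GV (V889), 2325 at polyA MII (V897) and 103, 2657 and 1407 at RiboMinus GV (V1131, V1132, V1133). In RiboMinus cKO MII against GV, 2770 became 0 on female sums, 802 with voom and 203 without V1131 (it also dropped by over 1.5 times without V1166), and in RiboMinus controls 5042 became 3098 without V1132. The polyA MII interaction went from 2287 to 13 and 548 and the RiboMinus one to 833 with voom, in place of 2837. Without V889 or V888 the former was 764 or 4355, and without V1132 or V1133 the latter was 1367 or 1777. With single females left out, the GV3h against GV counts ranged from 49 to 376 in controls, in place of 66. They ranged from 34 to 1548 in the cKO, in place of 86, and from 1 to 604 for the interaction, in place of 15. The fit of all groups gave 6620 in place of 3949 at RiboMinus MII. Without control egg V1145_2, V1145_3 or V1145_4 that count was 2328, 2487 or 2439. Library totals moved the share of higher calls from 54.3 to 70.3% at polyA GV, 53.0 to 67.3% at GV3h, 50.5 to 61.9% at polyA MII and 56.2 to 66.3% at RiboMinus GV, and from 47.5 to 31.6% and 44.3 to 27.9% in polyA control and cKO MII against GV. Voom moved it by over 10 percentage points down from 54.3 to 32.1% at polyA GV, 56.2 to 41.2% at RiboMinus GV and 58.7 to 45.2% at RiboMinus MII, and up from 64.9 to 84.7% for the polyA MII interaction. For that interaction the share fell to 49.9% with DESeq2 size factors, 52.1% under library totals and 49.0% with DESeq2's Wald test. Under library totals the median of all genes moved in polyA control and cKO MII against GV from −0.08 to −0.46 and from −0.17 to −0.62, and at polyA GV and GV3h from 0.06 to 0.21 and 0.03 to 0.20. In polyA control MII eggs depth limits Uba6, with 2 to 82 counts, Rps27a, with 0 to 17, Ube2m, with 1 to 12, and Ube2f, with 3 to 31.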
